A study of Homo sapiens with 38 samples.

Results

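CD34 and MPO are 2 of the 90127 features in the deposited count table and 2 of its 23257 protein-coding features, and they were found there by their Ensembl gene identifiers without the version. The libraries were small RNA libraries of 2 acute myeloid leukaemia cell lines, KG1a and HL60, both of genotype WT per the labels, and of the large vesicles (lEV) and small vesicles (sEV) that each line released. Each source was sequenced as total RNA and as RNA enriched by rPAL, a chemistry that oxidises sialic acid sugars with periodate and ligates biotin to them so that sialylated RNA can be pulled down. This gave 12 groups and 38 libraries, with 4 libraries each for KG1a cell total RNA and KG1a cell rPAL RNA and 3 for every other group. RNA labelled as cell RNA came from cells grown with 10% fetal bovine serum, whereas vesicles came from cells kept without serum for 2 days. The vesicle fraction and the serum-free culture therefore cannot be told apart in any comparison of vesicles with cells. Each line is a single leukaemia line, and in these bulk samples fewer cells of a type and less RNA per cell cannot be told apart.

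CD34 encodes a sialylated mucin on the surface of blood stem and progenitor cells, where it takes part in adhesion. MPO encodes myeloperoxidase, the haem enzyme that promyelocytes pack into azurophil granules and that makes hypochlorous acid from hydrogen peroxide and chloride. In normal blood formation CD34 is lost as granulocyte precursors mature, while MPO is switched on at the myeloblast and promyelocyte stage, which is why the pair is used to place leukaemias along the myeloid lineage. KG1a is known as a primitive, CD34-positive line and HL60 as a promyelocytic line.

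The CD34 feature was ENSG00000174059.17, on the minus strand of chromosome 1 at 207880972 to 207911402 in GRCh38. The MPO feature was ENSG00000005381.9, on the minus strand of chromosome 17 at 58269856 to 58280935. By the GENCODE 29 annotation the longest CD34 transcript had 8 exons, 8246 bases and a coding sequence of 1158 bases, so that most of it was untranslated. The longest MPO transcript had 12 exons and 3215 bases, of which 2238 were coding. The first 60 coding bases of each transcript are shown to identify the 2 messages, with the start codon in capitals. They lie at chr1:207911021-207911080 for CD34 and chr17:58280699-58280758 for MPO, both on the minus strand.
CD34: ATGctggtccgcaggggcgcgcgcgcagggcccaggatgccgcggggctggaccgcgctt
MPO: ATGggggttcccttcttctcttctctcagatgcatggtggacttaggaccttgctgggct

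Reads of small RNA libraries are short, so a read can match another gene, and the 2 genes differed in where such matches lay. In the longest CD34 transcript, 311 of 8227 stretches of 20 bases (3.78%) also occurred on the same strand of another GENCODE gene, but only 1 of the 1139 stretches in its coding sequence did. The shared CD34 stretches were spread over 6727 other genes and, apart from that 1, lay outside the coding sequence. On the opposite strand the entry with most matches, 151, was RF00017, the signal recognition particle RNA family to which Alu repeats are related. In the longest MPO transcript, 106 of 3196 stretches (3.32%) were shared, 98 of them in the coding sequence, with 12 other genes. The main partner was EPX, the eosinophil peroxidase gene, with 95 shared stretches, and LPO, the lactoperoxidase gene, had 2.

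The longest run that MPO shares with each of these neighbouring peroxidase genes is shown because a short read from it could not be assigned to a single gene; capitals mark the shared run of 44 bases for EPX and of 21 bases for LPO. The MPO and EPX windows cross an exon junction and span chr17:58272858-58273414 on the minus strand and chr17:58199794-58200285 on the plus strand. The MPO and LPO windows lie at chr17:58275555-58275593 on the minus strand and chr17:58254920-58254958 on the plus strand.
MPO, window shared with EPX: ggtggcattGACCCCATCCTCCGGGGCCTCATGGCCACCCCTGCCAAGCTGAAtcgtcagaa
EPX: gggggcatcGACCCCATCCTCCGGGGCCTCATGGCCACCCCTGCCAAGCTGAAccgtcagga
MPO, window shared with LPO: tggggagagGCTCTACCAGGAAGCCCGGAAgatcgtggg
LPO: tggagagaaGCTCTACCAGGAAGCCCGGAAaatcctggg
EPX had 9, 10 and 2 counts summed over the HL60 total RNA libraries of cells, lEV and sEV, and 14 in HL60 cell rPAL RNA. In KG1a sEV it had 10 counts in total RNA, as many as MPO, and 11 in rPAL RNA. LPO had 318 counts in HL60 sEV rPAL RNA, where MPO had 100. The part of either gene in the MPO counts was not tested. No other feature of the table followed CD34 or MPO within 0.2 log2 counts in every library. GENCODE 29 places the antisense gene AL356275.2 over 1411 bases of the CD34 locus and no gene over MPO. The strand setting used to count reads is not given in the sources used here, so CD34 and antisense reads in that stretch cannot be told apart.

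The total RNA libraries held 5498168 to 14892937 counts and the rPAL libraries 2380745 to 15532758. Protein-coding features took 0.842% to 9.07% of the counts in total RNA and 1.83% to 47.0% in rPAL RNA, so each member rests on at most 295 counts in a library. In the library at 47.0%, HL60 sEV rPAL replicate 2, PCNA alone held 85.2% of the protein-coding counts. Protein-coding features with at least 1 count numbered 10828 to 17644 in total RNA libraries and 4213 to 14130 in rPAL libraries. No pair of libraries of a group agreed within sampling noise, the lowest chi-square per degree of freedom being 31.9. Levels are given as CPM, the count divided by the total of the library on the usual scale.

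In cell total RNA, CD34 was the KG1a message and MPO the HL60 message. CD34 had 38, 58, 33 and 14 counts in the 4 KG1a cell libraries, or 2.95 ± 1.47 CPM (SD, n = 4). In the 3 HL60 cell libraries it had 1, 0 and 2 counts. Every KG1a library lay above every HL60 library, and the summed counts put CD34 42.5-fold higher in KG1a cells, with a 95% interval from counting error of 14.2 to 208. MPO had 50, 31 and 26 counts in HL60 cells, or 2.49 ± 0.943 CPM (SD, n = 3), and 1, 0, 0 and 0 counts in KG1a cells. The HL60 libraries again stood clear of all KG1a libraries, with a ratio of summed counts of 120 that has a counting interval of 21.1 to 4786 because it rests on 1 KG1a count. The edgeR quasi-likelihood test with Benjamini-Hochberg adjustment gave a log2 fold change, HL60 against KG1a cells, of -5.13 ± 0.63 (SE) for CD34 with an adjusted p of 2.96e-06. For MPO it gave 6.44 ± 0.66 (SE) with an adjusted p of 2.81e-07. Both members were called, against 39.9% of the 8655 features tested in that comparison.

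Large vesicles kept the same partition between the lines. CD34 had 57, 114 and 120 counts in KG1a lEV and 0, 4 and 0 in HL60 lEV, or 9.11 ± 4.07 against 0.0975 ± 0.169 CPM (SD, n = 3 each). MPO had 53, 97 and 88 counts in HL60 lEV, or 6.02 ± 1.39 CPM (SD, n = 3), and no count in any KG1a lEV library. The groups did not overlap for either gene. CD34 was 85.6-fold higher in KG1a lEV by summed counts (counting interval 33.1 to 316). MPO was at least 67.4-fold higher in HL60 lEV, taking 3 counts over the KG1a group as the limit that a count of 0 allows. In edgeR the log2 fold change, HL60 against KG1a, was -5.30 ± 0.91 (SE) for CD34, with an adjusted p of 0.00232, and MPO had an adjusted p of 0.000203. Both members were called here too, against 16.1% of the features tested.

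Small vesicles separated the lines for CD34, while the call for MPO depended on the test. CD34 had 65, 120 and 295 counts in KG1a sEV, or 18.4 ± 14.1 CPM (SD, n = 3), and none in the 3 HL60 sEV libraries, which makes it at least 146-fold higher in KG1a sEV against 3 counts over the HL60 group. Its replicates spread widely, the highest KG1a sEV library holding 61.5% of the group's CD34 counts. The edgeR adjusted p for CD34 was 0.0208, against 1.38% of features called. That call rests on the libraries used, since the adjusted p rose to 0.0893 without KG1a sEV total replicate 1, to 0.0731 without KG1a sEV total replicate 3, to 0.0963 without HL60 sEV total replicate 2 and to 0.0922 without HL60 sEV total replicate 3.

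MPO had 16, 29 and 37 counts in HL60 sEV, or 3.31 ± 0.351 CPM (SD, n = 3), and 0, 1 and 9 counts in KG1a sEV, or 0.386 ± 0.571 CPM (SD, n = 3). All HL60 libraries lay above the KG1a libraries, and the ratio of summed counts was 8.98 (counting interval 4.64 to 19.4). The edgeR log2 fold change was 4.0 ± 1.03 (SE) and missed the threshold with an adjusted p of 0.117, while DESeq2 called it with an adjusted p of 0.00179. The 9 MPO counts came from the KG1a sEV library that also had 295 CD34 counts.

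**Figure D1:**
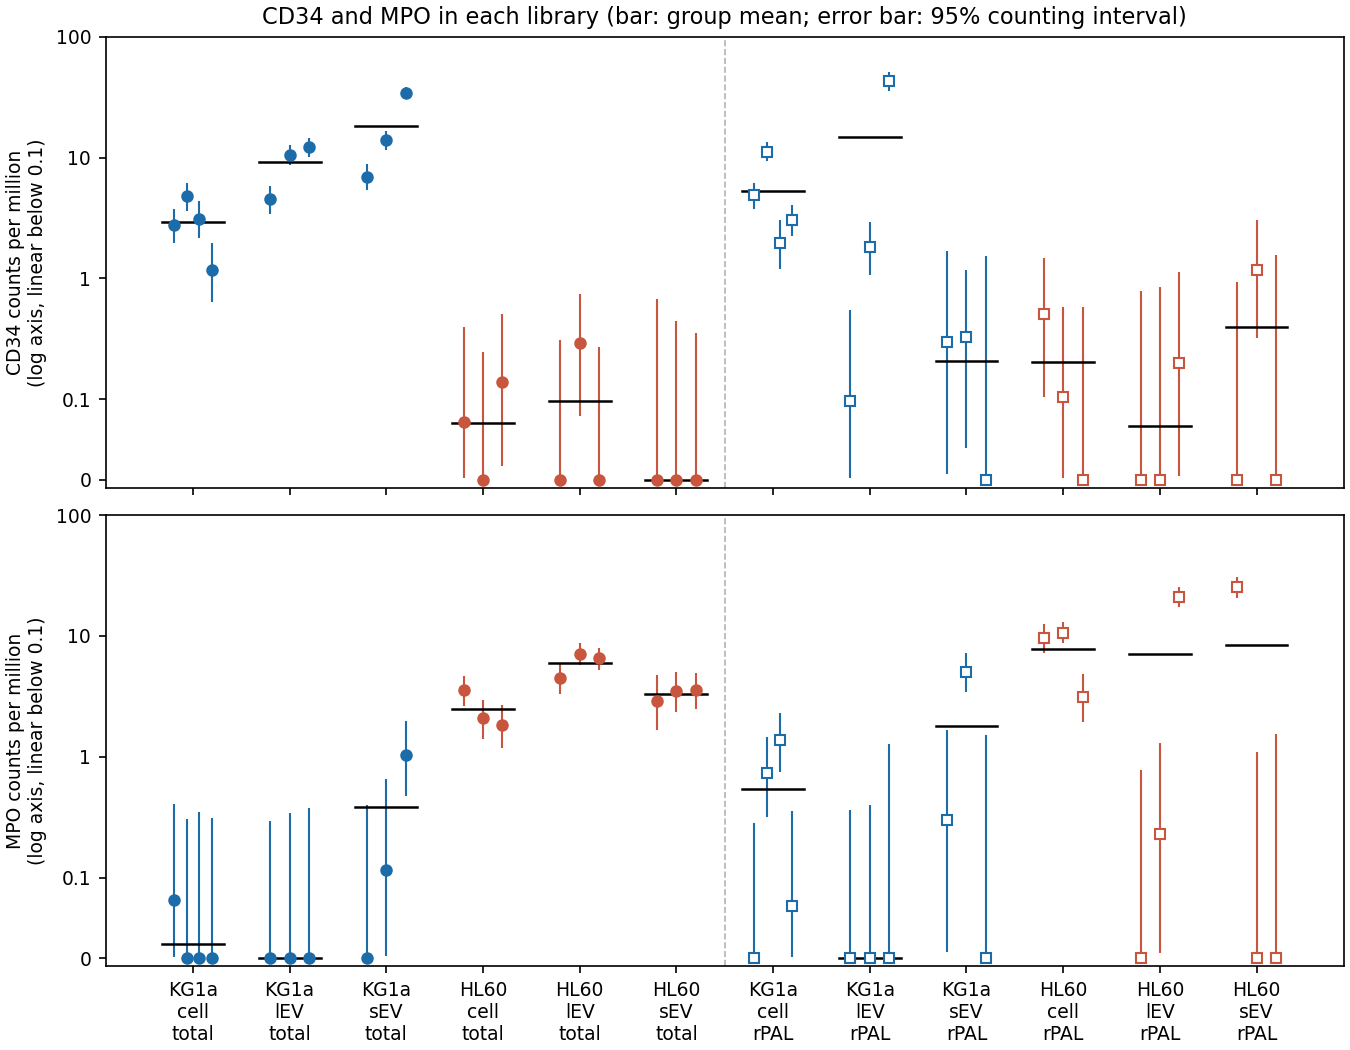
CPM of CD34 (upper panel) and MPO (lower panel) in each of the 38 libraries, on a log axis that is linear below 0.1. Filled circles are total RNA, open squares rPAL RNA, blue KG1a and red HL60, bars are group means and error bars 95% counting intervals. In total RNA every KG1a library lies above every HL60 library for CD34 and below every HL60 library of its source for MPO, whereas in vesicle rPAL RNA single libraries carry most of the signal.

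The ratio of CD34 to MPO counts within a library needs no scaling by the library total. With 0.5 added to each count, though, it still grows in size with depth where a gene had no count. It was expressed as log2((CD34 + 0.5)/(MPO + 0.5)), and since the 2 genes differ in length it was compared between libraries and not read as a ratio of molecules. In total RNA it averaged 5.62 ± 1.04 in KG1a cells (SD, n = 4), 7.53 ± 0.60 in KG1a lEV and 6.11 ± 1.05 in KG1a sEV (SD, n = 3 each). In HL60 it averaged -4.82 ± 1.30 in cells, -6.22 ± 1.58 in lEV and -5.72 ± 0.61 in sEV (SD, n = 3 each). The lowest of the 10 KG1a libraries was at 4.68 and the highest of the 9 HL60 libraries at -3.41, so no total RNA library fell between the lines. The mean difference over the 3 sources was -12.00, with p = 7.0e-05 in a two-sided permutation test of the line labels within each source (100000 resamples). This is about the smallest p that so few libraries per source allow, so it adds little to the lack of overlap.

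**Figure D2:**
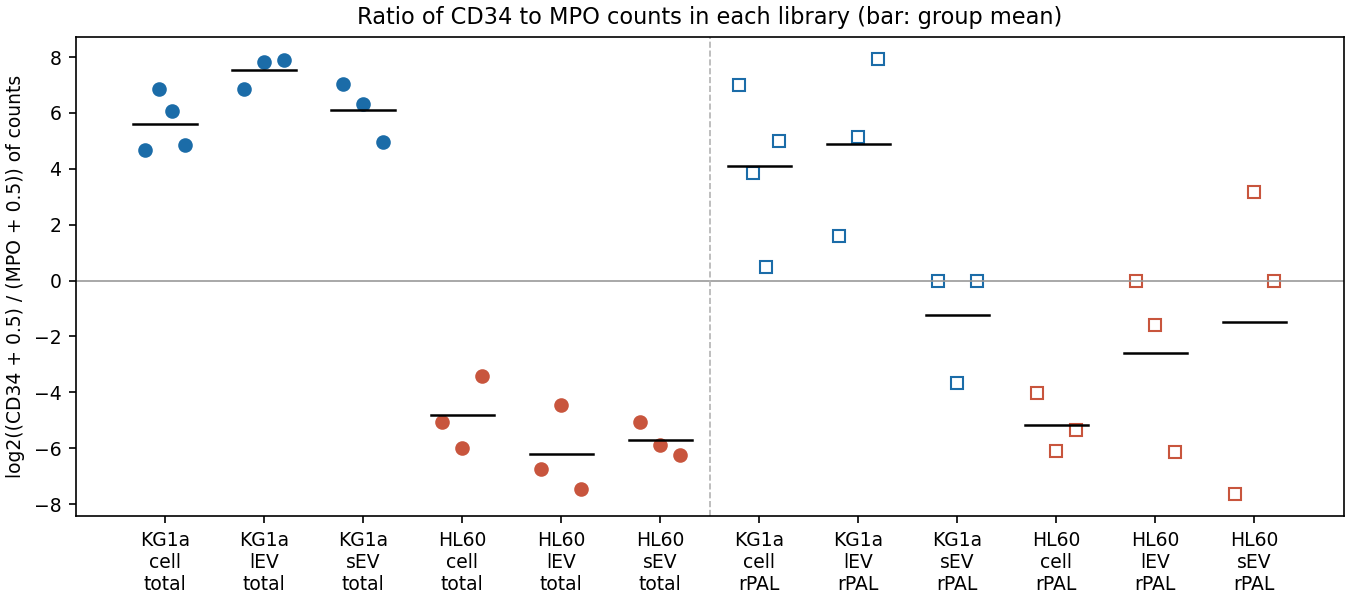
Log2 ratio of CD34 to MPO counts, with 0.5 added to each, in every library. Filled circles are total RNA, open squares rPAL RNA, blue KG1a and red HL60, and bars are group means. Total RNA libraries of KG1a lie at 4.68 or higher and those of HL60 at -3.41 or lower. Some rPAL libraries of vesicles and of KG1a cells lie in the space between.

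Within KG1a, CD34 was higher in the total RNA of vesicles than of cells. The 3 lEV libraries had 4.51, 10.6 and 12.2 CPM and the 4 cell libraries 2.75, 4.77, 3.11 and 1.18 CPM, so that 1 lEV library fell among the cells. The edgeR log2 fold change was 1.53 ± 0.41 (SE), with an adjusted p of 0.00553, against 52.3% of features called in this comparison. More features were called than not, and the median protein-coding feature moved by 0.28. Of the 5007 protein-coding features tested, 85.8% had a lower fold change than CD34.

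In KG1a sEV CD34 had 6.97, 14.0 and 34.2 CPM, and all 3 libraries lay above the 4 cell libraries. Mean CPM was 6.22-fold higher than in cells, but edgeR, which scales libraries by TMM, gave a log2 fold change of 1.47 ± 0.51 (SE) with an adjusted p of 0.0328, against 45.1% of features called. With library totals in place of TMM the log2 fold change was 2.63. As a share of protein-coding counts, CD34 stood at 142 ± 64.4 CPM of these counts in cells (SD, n = 4), 482 ± 196 in lEV and 386 ± 199 in sEV (SD, n = 3 each). Leaving out any of KG1a cell total replicates 1, 3 and 4 or KG1a sEV total replicates 2 and 3 ended the sEV call, with adjusted p values of 0.0775, 0.0953, 0.0939, 0.0650 and 0.129 in that order. The replicate block gave 1.02 with an adjusted p of 0.140. That fit used only shared replicate numbers, so it also left out KG1a cell total replicate 4. Between the 2 kinds of KG1a vesicle CD34 had a log2 fold change, sEV against lEV, of 0.10 ± 0.56 (SE) and an adjusted p of 0.934, with 5.31% of features called, so that no order of lEV and sEV was shown.

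Within HL60, MPO was higher in lEV than in cells, and by mean CPM sEV lay between them. The lEV libraries had 4.44, 7.10 and 6.51 CPM, the cell libraries 3.57, 2.08 and 1.82 and the sEV libraries 2.91, 3.47 and 3.55. All lEV libraries lay above all cell and sEV libraries, while cells and sEV overlapped. As a share of protein-coding counts, MPO stood at 119 ± 37.5 CPM of these counts in cells, 573 ± 205 in lEV and 112 ± 69.1 in sEV (SD, n = 3 each). On that scale sEV did not lie between the other 2 sources. The edgeR log2 fold change of lEV against cells was 2.15 ± 0.48 (SE), with an adjusted p of 0.00592, against 27.3% of features called, and 98.4% of the 4230 protein-coding features tested had a lower value than MPO. This call was lost with library totals in place of TMM, where the log2 fold change was 1.27 and the adjusted p 0.0857, and without HL60 cell total replicate 3, where the adjusted p was 0.0599. MPO in sEV differed from cells by 0.17 ± 0.44 (SE) on the log2 scale, with an adjusted p of 0.810 and 26.7% of features called. The sEV against lEV difference was -1.95 ± 0.70 (SE), with an adjusted p of 0.115 in edgeR and 0.0180 in DESeq2, and 7.21% of features were called by edgeR.

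The absent member stayed near the floor in every source. CD34 in HL60 totalled 3 counts in cells, 4 in lEV and 0 in sEV, and MPO in KG1a totalled 1 in cells, 0 in lEV and 10 in sEV. These were too few to pass the filter on low counts in any comparison of 2 groups within a line, so no such test was made. Among protein-coding features with a count, ordered by mean CPM, CD34 ranked 716 of 17544 in KG1a cells, 210 of 15937 in KG1a lEV and 215 of 19235 in KG1a sEV. MPO ranked 775 of 17549 in HL60 cells, 143 of 15905 in HL60 lEV and 1698 of 18560 in HL60 sEV. Per kilobase of annotated exon, CD34 stood at 0.320 CPM in KG1a cells and 0.988 in KG1a lEV, and MPO at 0.706 CPM in HL60 cells and 1.71 in HL60 lEV. The exon length counts all annotated isoforms, and a shorter CD34 isoform has 2874 bases against the 8246 of the longest, so this scale depends on which isoform was present.

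**Figure D3:**
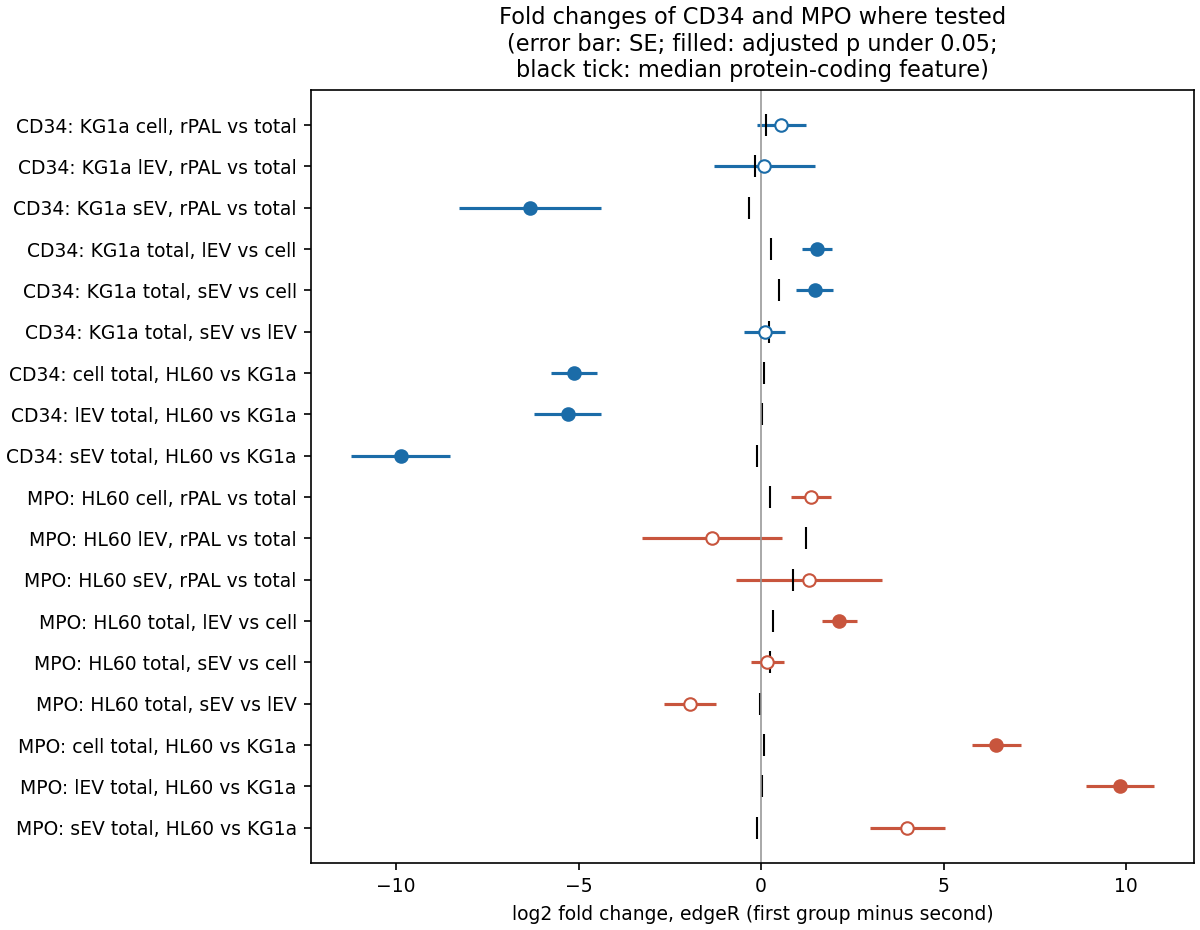
Log2 fold changes of CD34 (blue) and MPO (red) in the comparisons in which each passed the filter on low counts, as first group minus second. Error bars are SE, filled points have an adjusted p under 0.05 and black ticks mark the median protein-coding feature. CD34 in the line comparisons lies left of 0 and MPO right of 0, and the rPAL comparisons of vesicles have the 4 largest SE, from 1.39 to 2.0.

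The rPAL libraries of cells kept the member that marked the line. CD34 had 64, 122, 20 and 47 counts in KG1a cell rPAL RNA, or 5.26 ± 4.14 CPM (SD, n = 4). The groups overlapped, and 2 of the 4 rPAL libraries, at 4.87 and 11.2 CPM, lay above the highest total RNA library, at 4.77 CPM. The edgeR log2 fold change, rPAL against total, was 0.55 ± 0.67 (SE) with an adjusted p of 0.666, against 18.8% of features called. MPO had 57, 103 and 20 counts in HL60 cell rPAL RNA, or 7.81 ± 4.07 CPM (SD, n = 3), against 2.49 CPM in total RNA. Its groups overlapped, and the log2 fold change was 1.37 ± 0.55 (SE) with an adjusted p of 0.0831, against 38.6% of features called. Without HL60 cell rPAL replicate 3, the lowest of the 3, it was 1.60 with an adjusted p of 0.0256. Neither member was thus shown to be enriched or depleted by rPAL in cells.

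In KG1a sEV, CD34 was nearly absent from rPAL RNA. The 3 rPAL libraries had 1, 2 and 0 counts where the CPM of total RNA would have given 61.2, 113 and 44.5 at their depths. Total RNA had 65, 120 and 295, and by summed counts CD34 was 71.6-fold lower in rPAL RNA (counting interval 24.4 to 348). The groups did not overlap, and the edgeR log2 fold change was -6.34 ± 1.95 (SE) with an adjusted p of 0.0300, against 6.61% of features called. Only 2.29% of protein-coding features tested had a lower value. The adjusted p rose to between 0.102 and 0.156 when any 1 of the 3 KG1a sEV total replicates or of KG1a sEV rPAL replicates 1 and 2 was left out, and to 0.150 with the replicate block.

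CD34 in KG1a lEV rPAL RNA was uneven between replicates. The counts were 1, 17 and 123, whereas the mean level of total RNA would have given 92.7, 84.5 and 26.1. Replicates 1 and 2 lay below that level and replicate 3 above it, and replicate 3 held 87.2% of the group's CD34 counts with 12.8% of its depth. The edgeR log2 fold change was 0.09 ± 1.39 (SE) with an adjusted p of 0.982, against 10.2% of features called. Without KG1a lEV rPAL replicate 3 it was -3.13 with an adjusted p of 0.0679, so the group mean of 14.9 ± 24.2 CPM (SD, n = 3) describes none of its libraries.

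MPO in HL60 vesicle rPAL RNA came from 1 library per vesicle kind. HL60 lEV rPAL libraries had 0, 1 and 105 MPO counts against 28.4, 26.0 and 29.9 at the mean level of total RNA. HL60 sEV rPAL libraries had 100, 0 and 0 counts against 13.1, 11.2 and 7.89. HL60 lEV rPAL replicate 3 and HL60 sEV rPAL replicate 1 exceeded the level of total RNA, and the other 4 libraries fell below it.

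The single library held 99.1% of MPO counts in lEV rPAL and 100% in sEV rPAL. Such concentration was common in these groups: among protein-coding features with 0.5 to 2 times as many counts, the median share in 1 library was 98.0% in lEV rPAL and 97.2% in sEV rPAL. The edgeR log2 fold changes of MPO, rPAL against total, were -1.34 ± 1.92 (SE) in lEV with an adjusted p of 0.663 and 1.31 ± 2.0 (SE) in sEV with an adjusted p of 0.725, against 31.3% and 18.8% of features called. Without HL60 lEV rPAL replicate 3 the lEV value was -7.18 with an adjusted p of 0.0194, and without HL60 sEV rPAL replicate 1 the sEV value was -7.45 with an adjusted p of 0.0531.

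**Figure D4:**
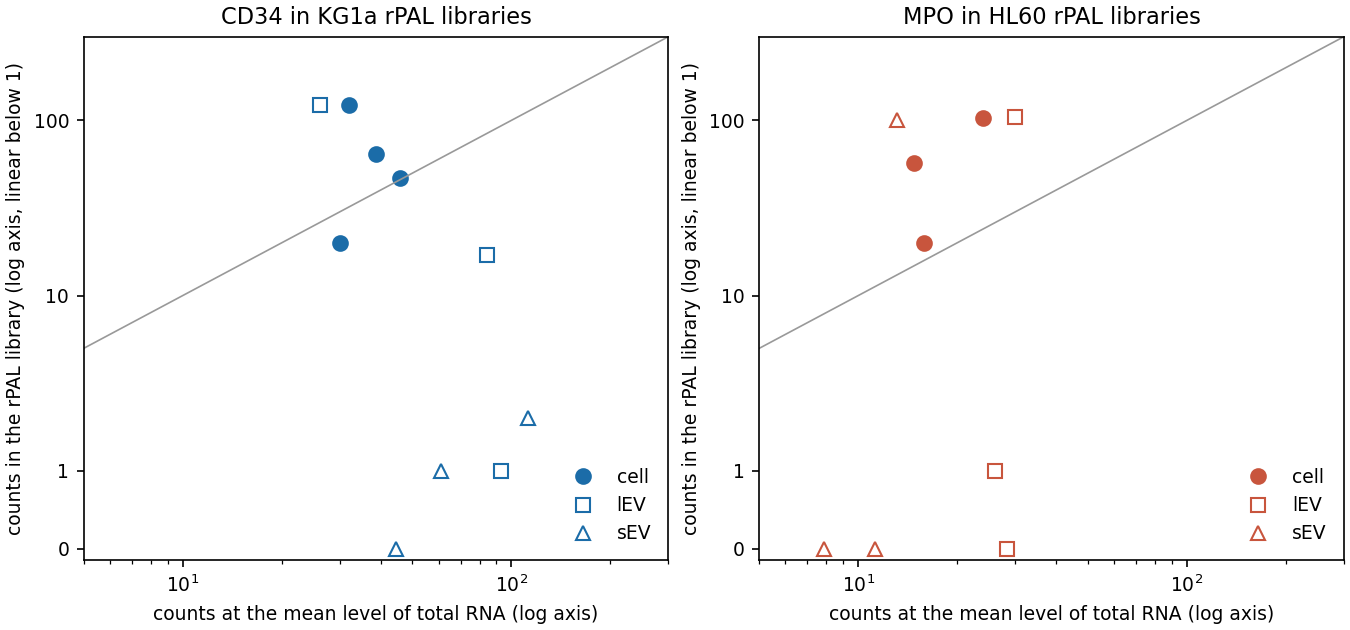
Counts of CD34 in KG1a rPAL libraries (left) and of MPO in HL60 rPAL libraries (right) against the counts that the mean CPM of total RNA of the same source would give at the library's depth. The horizontal axes are logarithmic, the vertical axes are logarithmic but linear below 1, and the grey line marks equality. Cell libraries lie near or above the line, all 3 KG1a sEV libraries have 2 counts or fewer, and 4 of the 6 HL60 vesicle libraries have 1 or 0.

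The rPAL libraries also held counts of the member that total RNA of the line lacked. MPO had 0, 8, 14 and 1 counts in KG1a cell rPAL libraries and 1, 31 and 0 in KG1a sEV rPAL libraries, and none in KG1a lEV rPAL libraries. CD34 in HL60 rPAL RNA stayed at 0 to 4 counts per library. For MPO the summed counts in KG1a cells were 23 in rPAL against 1 in total RNA, a ratio of 22.4 with a counting interval of 3.64 to 923. The spread between the 4 rPAL libraries, 0.542 ± 0.644 CPM (SD, n = 4), was as large as their mean, and the gene did not pass the filter on low counts.

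The ratio of CD34 to MPO lay outside the total RNA range of the own line in 10 of the 19 rPAL libraries. Of these, 6 had at most 1 count of each gene, and with 0.5 added such a library cannot reach that range. Of 10 KG1a rPAL libraries, 4 lay at or above the lowest KG1a total RNA library, and of 9 HL60 rPAL libraries, 5 lay at or below the highest HL60 total RNA library. None lay in the total RNA range of the other line except 1 KG1a library. That library was KG1a sEV rPAL replicate 2, with 2 CD34 and 31 MPO counts.

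Over all 6 sources, rPAL against total RNA, neither member shifted by more than permutation of the labels within sources allowed. On the log2(CPM + 1) scale the mean difference was -0.60 for CD34 with p = 0.142, or 0.283 adjusted over the 2 genes (two-sided permutation test, 100000 resamples). For MPO it was 0.10, with a permutation p of 0.803. These means take in the sources of the line that lacks the member, where CD34 had 0 to 4 counts per HL60 library and MPO had none in KG1a lEV of either RNA kind. Over the 3 KG1a sources alone the CD34 difference was -1.36 with a permutation p of 0.0868, and over the 3 HL60 sources alone the MPO difference was -0.17 with a permutation p of 0.803. Scaled to protein-coding counts the CD34 difference was -1.63 with a permutation p of 0.0206. HP, the haptoglobin gene, held up to 48.7% of protein-coding counts in an HL60 cell rPAL library and PCNA 85.2% in the HL60 sEV rPAL library named above, and the part of these 2 genes in that value was not tested.

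Whether rPAL changed a member differently in vesicles than in cells was tested as an interaction in edgeR. For CD34 in KG1a the sEV minus cell difference was -6.57 ± 1.71 (SE) on the log2 scale with an adjusted p of 0.0719, against 0.0584% of features called, and the lEV minus cell difference was -0.55 ± 1.47 (SE) with an adjusted p of 0.915. MPO passed the filter in the KG1a sEV test, with a difference of -1.39 ± 2.06 (SE) and an adjusted p of 0.800. In the lEV test edgeR called 0% of features at the adjusted threshold, 1499 of the 10442 tested having an unadjusted p under 0.05. For MPO in HL60 they were -0.87 ± 2.08 (SE) for sEV and -2.76 ± 1.93 (SE) for lEV, with adjusted p values of 0.841 and 0.374, against 13.2% and 12.7% of features called. Without HL60 sEV rPAL replicate 1 the sEV difference was -8.47 with an adjusted p of 0.0271, and without HL60 lEV rPAL replicate 3 the lEV difference was -8.14 with an adjusted p of 0.00679. A different effect of rPAL in vesicles was thus not shown with all libraries.

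Most tested stem and primitive cell genes were lower in HL60 than in KG1a cell total RNA. Of 23 such genes, 14 were tested, of which 12 were lower in HL60 cells and 2 higher, where 39.9% of all features were called in either direction. The median log2 fold change of the list was -2.51 and that of all features -0.01. The 12 lower genes include CD34. HOXA9 and CD109 had no count in HL60 cells and passed the filter through KG1a alone, so such genes could only be lower. The tally is thus partly set by the filter and is no independent support for the CD34 difference. HOXA9, a homeobox gene of blood stem cells, had 3.03 ± 0.0952 CPM in KG1a cells (SD, n = 4) and no count in HL60 cells. The transcription factors TCF4, SOX4 and GATA2 were lower by log2 fold changes of -1.83, -1.28 and -1.25. MYB, which drives progenitor proliferation, and MN1 went the other way, at 1.82 and 4.10. In lEV 8 of 12 tested genes of the list were lower in HL60 and none higher, against 16.1% of all features called. Among them were CD34, CD109, HOPX and HOXA9, and the last 2 had no count in HL60 lEV. In sEV CD34 was the only one of 11 to be called. In the list of sialomucins and related genes, PODXL2, a relative of CD34, was higher in HL60 cells by 1.36.

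Genes of the lists around MPO were mixed. Of 20 azurophil granule and granulocyte precursor genes, 4 passed the filter in cell total RNA, and MPO, SRGN, the proteoglycan of granules, and LAMP1, a lysosomal membrane protein, were higher in HL60 while SERPINB1, an inhibitor of neutrophil proteases, was lower. SRGN had a log2 fold change of 2.61 ± 0.37 (SE) and SERPINB1 of -1.14 ± 0.30 (SE), with adjusted p values of 1.31e-05 and 0.00482. ELANE, the neutrophil elastase gene, had no count in HL60 cells or lEV, nor in KG1a cells. It was an exception, since 18 of the 20 genes had a count in HL60 cells and 19 in HL60 lEV. In the list of peroxidases, NADPH oxidase subunits and MPO biosynthesis, 3 of 9 tested genes were higher in HL60 cells and none lower, a share close to the 39.9% of all features called. These were MPO, CYBB, the catalytic subunit of the phagocyte oxidase with no count in KG1a cells, and CANX, a chaperone that binds newly made MPO. Of 12 myeloid transcription factors 8 were tested: MYB and CEBPA were higher and RUNX1 and GATA2 lower in HL60 cells.

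**Figure D5:**
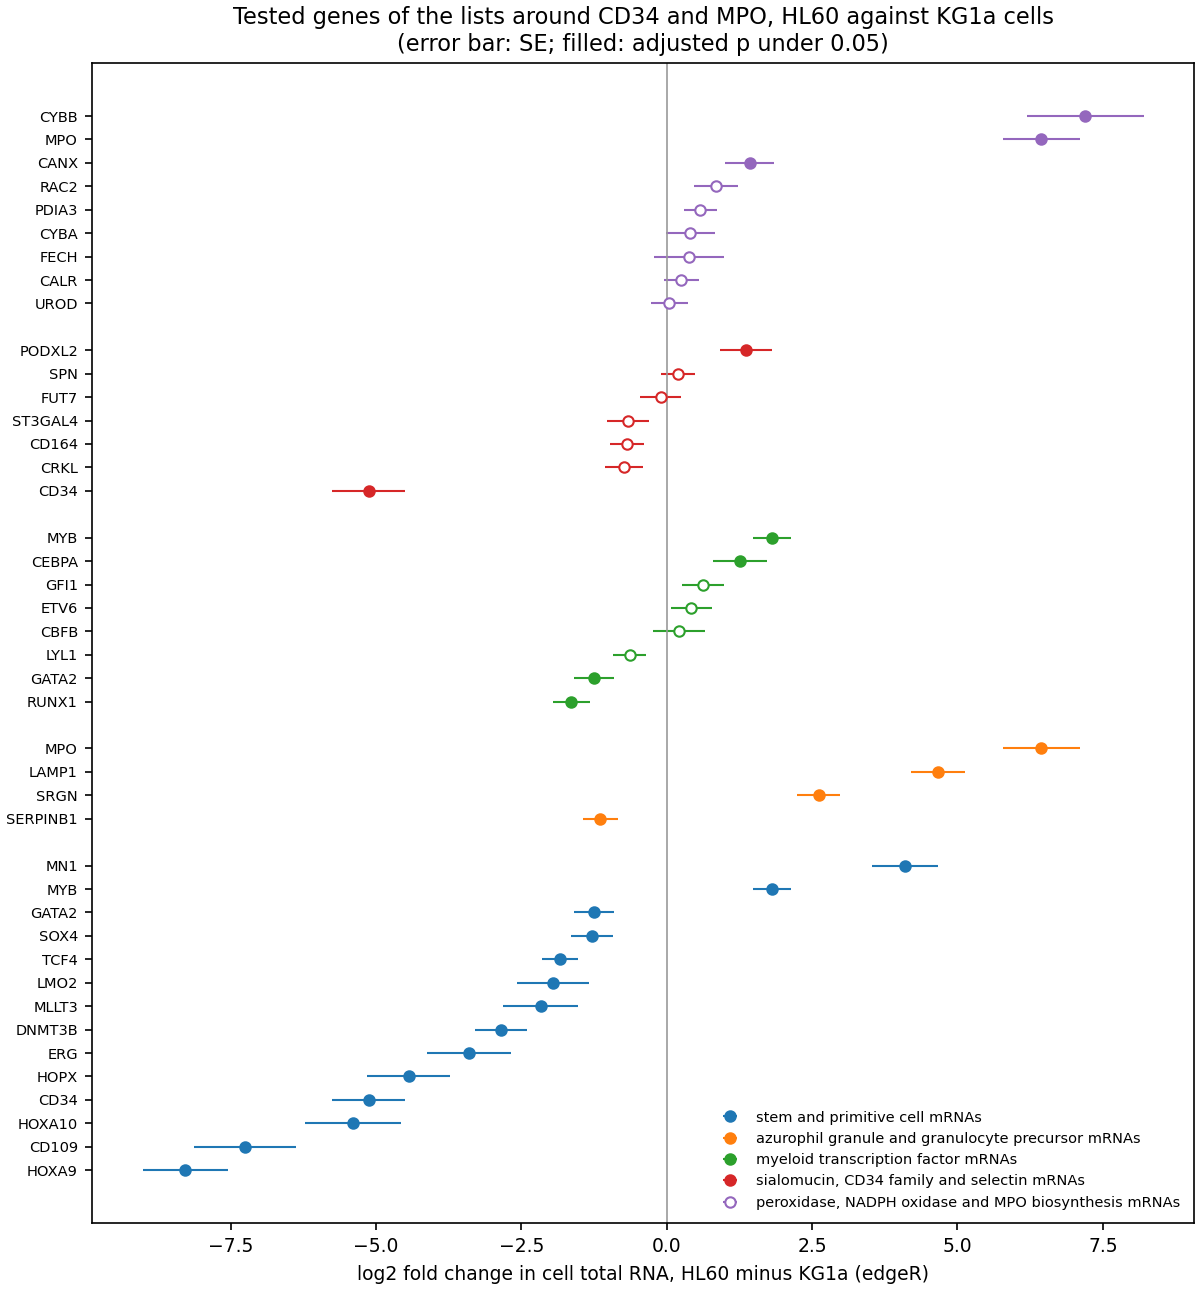
Log2 fold changes in cell total RNA, HL60 minus KG1a, of the tested genes of the 5 lists around CD34 and MPO, by list and colour. Error bars are SE and filled points have an adjusted p under 0.05. The 12 lower stem and primitive cell genes include CD34, and MPO and CYBB lie farthest to the right among the lists around MPO.

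In vesicles other genes of the lists were called in the same comparisons as the members. In KG1a lEV against cells, 5 of 13 tested stem and primitive cell genes were higher and none lower: CD34, CD109, MLLT3, HOPX and MYB, with log2 fold changes of 1.02 to 1.53, where 52.3% of all features were called. In the list of sialomucins and related genes, SPN, which encodes the leukocyte sialomucin CD43, was higher beside CD34, by 1.17. Of 10 widely expressed genes 8 were also higher there and 1, PPIA, was lower, and ACTB rose by 2.77, so that CD34 was not set apart from them. In HL60 lEV against cells, 3 of 9 tested genes of the peroxidase list were higher and none lower: MPO, CANX (2.23) and CALR (1.96). CANX and CALR encode chaperones of MPO biosynthesis. Both were also higher in KG1a lEV against cells, by 2.07 and 1.56, although MPO had no count in KG1a lEV. In that comparison 4 of 6 tested genes of the peroxidase list were higher, so the rise of the chaperones was not particular to HL60. Of 5 tested azurophil granule genes, MPO and PRG2 (1.78), an eosinophil granule gene, were higher, whereas LAMP1 fell by 2.60. In HL60 lEV against cells 27.3% of all features were called, a share close to that of the peroxidase list. Of the widely expressed genes 1 of 10, GAPDH, was called there. In KG1a sEV rPAL RNA, 2 of 6 tested genes of the sialomucin list were lower, CD34 itself and CD164, where 6.61% of all features were called. CD164, an endolyn sialomucin, had no count in rPAL RNA against 7.63 ± 3.16 CPM in total RNA (SD, n = 3). Both genes passed the filter on low counts through total RNA alone, so they could only be lower. The tally is thus set by the filter in part and is no independent support for the CD34 difference.

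By the similarity of log2(CPM + 1) over the 19 total RNA libraries, among 4931 protein-coding genes with a mean of at least 1 CPM, the genes most like CD34 were UBE2L6, NPDC1, CD96, GBP5 and PARP14, with Pearson correlations of 0.961 to 0.977. Those most like MPO were IGF2BP1, CD4, IL17RA, USP22 and PIK3CD, at 0.878 to 0.941. CD96 had 1.36, 4.96 and 7.98 CPM in KG1a cells, lEV and sEV and at most 0.277 in any HL60 source. CD4 had 1.77, 2.07 and 2.46 CPM in HL60 cells, lEV and sEV and at most 0.0776 in any KG1a source. The libraries form 2 separate clusters by line and share their depth within a source, so the correlations are a description only.

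Several markers of other blood and tissue cells reached levels like those of the members, and their part in the results was not tested. In cell total RNA the summed level of 6 erythroid genes reached at most 0.756 CPM, and that of 4 monocyte genes 0.873 CPM. Of the 4 platelet genes PF4, PPBP and GP9 had no count in cells, while ITGA2B, also a gene of early progenitors, had 6.74 ± 2.40 CPM in KG1a cells (SD, n = 4) and 0.258 ± 0.282 in HL60 cells (SD, n = 3). CD3D among 5 lymphoid genes was higher in KG1a cells, at 0.856 ± 0.289 CPM (SD, n = 4), and KRT18 among 3 epithelial genes was higher in HL60 cells, at 1.65 ± 0.246 CPM (SD, n = 3). In HL60 sEV total RNA the summed level of the lymphoid genes ranged from 1.80 to 81.1 CPM between libraries. The share of signal recognition particle RNA, which carries Alu-related sequence, rose from at most 0.0215% of counts in KG1a cells to between 0.207% and 0.288% in KG1a lEV. It was 0.0222% to 0.0452% in HL60 lEV, where CD34 had 4 counts in all, and its part in the CD34 level of KG1a vesicles was not tested.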

How the data were processed

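The authors deposited a table of raw counts per feature for all 38 libraries. Per the labels, RNA was extracted with RNAzol and columns and made into small RNA libraries with the MGIEasy kit. The submitters' processing notes name Bowtie2 and GRCh38 (hg38); the counting tool, its strand setting and its treatment of reads with several matches are not given in the sources used here. Symbols were matched from GENCODE 29 for 57355 of 90127 features. Sequences were read from the GENCODE 29 transcripts.

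Counts were tested with edgeR 4.0.16 (TMM, filterByExpr, robust glmQLFit and glmQLFTest) in R 4.3.3, on the groups compared only, with Benjamini-Hochberg adjustment over all features tested and a threshold of 0.05. The script was tested on simulated counts with 4-fold and 16-fold changes. It called 1.30% and 60% of these for KG1a cells, rPAL against total. For KG1a lEV against cells it called 80.2% and 100%, and for HL60 against KG1a cells 93.9% and 100%. A missing call alone in that rPAL comparison therefore does not exclude a 4-fold change. The simulation gave all features the same dispersion, so its shares need not hold for CD34. The log2 fold change of CD34 there was 0.55 ± 0.67 (SE). Alternatives were DESeq2 1.42.0, library totals in place of TMM, protein-coding features only, no filter, the replicate number as a block, and each library left out. The block used only replicate numbers present in both groups. KG1a cell total replicate 4 was thus left out of its comparisons with KG1a vesicles and with HL60 cells. Permutation tests used NumPy 2.4.6, and counting intervals used SciPy 1.17.1. The interactions, and the alternatives without HL60 sEV rPAL replicate 2 or within 1 line, were chosen after seeing the data.

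The members and the gene lists were chosen with earlier results of these data known, so the line difference of CD34 and MPO is not independent support. The text names both members, up to 5 called genes per list and direction by mean CPM, and the 5 genes most like each member. ELANE and the marker genes of other cell types were picked out once values were known.

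The labels do not say that replicates came from separate cultures, so p-values measure the spread between these samples, which may be technical. The labels name no molecular identifiers, so 95% intervals (exact Poisson or binomial) and the limit of 3 counts for a 0 cover counting error only. Same-numbered samples deviated together (every correlation over 0.1) in 1 comparison, KG1a sEV against lEV total RNA, with correlations of 0.465, 0.188 and 0.351. HL60 sEV against lEV total RNA, at 0.145, 0.0932 and 0.211, fell just short of that limit. So did sEV total RNA between the lines, at 0.0939, 0.318 and 0.367. Whether replicate numbers mark a shared batch was not tested.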

Additional observations from a re-analysis of the deposited data

Results flagged for a closer look

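MPO in KG1a cell total RNA had 1 library apart from the others: replicate 1 was at 0.0725 CPM, which is 1 count, and the other 3 libraries had none. Chance puts 1 sample apart in this way in some groups, and 1 count is within counting error of 0.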

How the results depend on the processing

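The line differences of CD34 and MPO in cells and in lEV, CD34 in KG1a lEV against cells, and the CD34 to MPO ratio kept their direction and side of the threshold under every alternative run. With protein-coding features only, CD34 was -0.84 (log2) in KG1a lEV and -6.22 in KG1a sEV rPAL against total, 1.22 in KG1a sEV against cells, -0.043 in KG1a sEV against lEV and -9.79 in sEV between the lines, and MPO -0.70 in HL60 sEV rPAL against total; no call held among these. With no filter CD34 was -0.74 in KG1a lEV rPAL, -6.41 in KG1a sEV rPAL, 1.27 in KG1a sEV against cells and -0.20 in KG1a sEV against lEV, none called, and MPO -0.20 in HL60 sEV against cells and 3.70 in sEV between the lines, the last called. With library totals MPO was 0.24 in HL60 lEV rPAL and 1.27 in HL60 lEV against cells, neither called. DESeq2 called MPO at -1.88 in HL60 sEV against lEV and at 4.14 in sEV between the lines. With the replicate block CD34 was -2.12 in KG1a lEV rPAL, -6.18 in KG1a sEV rPAL and 1.02 in KG1a sEV against cells, and MPO -3.53 in HL60 sEV rPAL. The block changed no call of CD34 in KG1a sEV against lEV, and no other call of a member. Whether same-numbered samples share a batch is not given in the labels.

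Leaving out 1 library at a time, rPAL against total gave -3.13 to 0.47 for CD34 in KG1a lEV, -6.82 to -5.94 in KG1a sEV, and for MPO 0.67 to 1.60 in HL60 cells, -7.18 to -0.72 in lEV and -7.45 to 1.49 in sEV. Total RNA gave 1.04 to 1.75 for CD34 in KG1a sEV against cells, -0.37 to 0.41 in sEV against lEV and -10.14 to -9.19 in sEV between the lines, and for MPO 1.78 to 2.40 in HL60 lEV against cells and -0.39 to 0.16 in sEV against cells. The interactions ranged from -8.14 to -1.80 for MPO in HL60 lEV, -8.47 to 0.23 in HL60 sEV and -4.49 to 0.45 in KG1a sEV. Over 6 sources CD34 was -1.63 scaled to protein-coding counts; MPO was -0.16 with 0.1 added to CPM, -1.06 scaled to protein-coding counts, -0.17 in HL60 sources only and -0.017 to 0.16 without 1 replicate number.

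Counts of called features, which set the background shares, moved more. Apart from leaving out single libraries, 5 alternatives were run, of which the replicate block used only replicate numbers shared by both groups. Over these 5, rPAL against total ranged from 222 to 1633 (1236 as reported) in KG1a cells, 1 to 1305 (599) in KG1a lEV and 26 to 1122 (537) in KG1a sEV. In HL60 it ranged from 1034 to 3602 (2663) in cells, 309 to 1389 (1006) in lEV and 105 to 1175 (681) in sEV. Total RNA ranged from 2025 to 6107 (4070) in KG1a lEV and 1523 to 5361 (3933) in KG1a sEV against cells, 24 to 1447 (408) in KG1a sEV against lEV, 650 to 2191 (1785) in HL60 lEV and 267 to 3903 (2018) in HL60 sEV against cells, and 0 to 1824 (419) in HL60 sEV against lEV. Between lines it ranged from 2093 to 4716 (3455) in cells, 726 to 1554 (1004) in lEV and 0 to 874 (118) in sEV. The lowest counts mostly came with protein-coding features only, which tests fewer features; where edgeR called 0 in that setting, 732 and 730 features had an unadjusted p under 0.05 and DESeq2 over all features called 958 and 505. The cause of the lost, gained and reversed calls of members was not tested. The members rest on 82 to 480 counts per total RNA group of their own line.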
